A study of Homo sapiens with 12 samples.

Results

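Ribosome footprints and mRNA levels were followed for 7 genes of cellular iron handling in HCT116, a cell line from a human colorectal carcinoma, after inhibition of the kinases MEK1 and MEK2. The 7 genes were found by symbol among the 15798 genes with counts: the ferritin chains FTH1 and FTL, the iron exporter SLC40A1, the iron importers TFRC and SLC11A2, and the iron regulatory proteins ACO1 and IREB2. A gene was tested if at least 3 input libraries held at least 10 of its reads, which kept 10663 genes and 6 of the 7. SLC40A1 did not pass and is given by its counts alone.

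Cells balance iron uptake against storage through the iron-responsive element (IRE), a short RNA hairpin that is bound by the iron regulatory proteins when iron is scarce. Bound to a hairpin in the 5′ UTR, as in ferritin mRNA, the proteins block the start of translation, and bound to hairpins in the 3′ UTR, as in TFRC mRNA, they protect the message from decay. Ferritin is therefore known for control at the ribosome and TFRC, the transferrin receptor, for control of its mRNA level.

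The hairpins are shown because their position in the mRNA sets which of these controls applies. They were read from Gencode transcripts, and each matched the GRCh38 genome at the coordinates given. Capitals mark the loop of 6 bases, and all sequences are 27 bases, 5′ to 3′ on the mRNA strand. FTH1 lies at chr11:61959718-61967634 on the minus strand, and its hairpin lies in the 5′ UTR at chr11:61967575-61967601. FTL lies at chr19:48965309-48966879 on the plus strand, with its 5′ UTR hairpin at chr19:48965336-48965362. SLC40A1 lies at chr2:189560590-189583758 on the minus strand, with a 5′ UTR hairpin at chr2:189580662-189580688.
FTH1: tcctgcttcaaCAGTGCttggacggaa
FTL: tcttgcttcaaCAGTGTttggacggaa
SLC40A1: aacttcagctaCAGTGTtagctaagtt
The ferritin hairpins were identical at 25 of 27 bases, whereas the SLC40A1 hairpin matched each of them at 13 of 27.

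By the search given below, TFRC, at chr3:196012511-196082153 on the minus strand, held 4 hairpins in its 3′ UTR. SLC11A2, at chr12:50979401-51028566 on the minus strand, held 1. In mRNA order the TFRC hairpins lie at chr3:196050980-196051006, chr3:196050576-196050602, chr3:196050511-196050537 and chr3:196050464-196050490. The SLC11A2 hairpin lies at chr12:50988270-50988296.
TFRC copy 1: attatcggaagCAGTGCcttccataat
TFRC copy 2: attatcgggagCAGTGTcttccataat
TFRC copy 3: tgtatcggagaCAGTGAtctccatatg
TFRC copy 4: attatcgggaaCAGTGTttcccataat
SLC11A2: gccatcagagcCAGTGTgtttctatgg
Copies 1 and 2 of TFRC were identical at 25 of 27 bases, and copy 3 matched the other copies at 17 or 18. The SLC11A2 hairpin is carried by 4 of 17 coding transcripts of that gene and the SLC40A1 hairpin by 1 of 5, so counts over the whole gene do not separate forms with the hairpin from forms without it. ACO1 at chr9:32384603-32454769 and IREB2 at chr15:78437431-78501453, both on the plus strand, encode the binding proteins.

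The search asked for CNNNNNCAGTGN on the transcript strand, with the last loop base not G and the 5 bases on each side of the loop able to pair, G with T included. With all 5 bases paired, 11 of 18647 canonical 5′ UTRs (0.059%) and 97 of 19175 canonical 3′ UTRs (0.506%) held such a hairpin. The SLC11A2 hairpin pairs 4 of its 5 bases, a form found in 616 canonical 3′ UTRs (3.21%) when those with all 5 are included. A match describes the letters alone. Hairpins with other loop bases or another bulge would be missed, so the numbers of hairpins count matches to this pattern only.

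The study asked which mRNAs change in translation when MEK1/2 is inhibited. HCT116 cells received 100 nM trametinib, an inhibitor of MEK1 and MEK2, or its solvent DMSO for 24 h, and all cells were given cycloheximide, which stalls ribosomes, for 5 min before lysis. From each treatment, 3 libraries of ribosome footprints (fragments of 25 to 35 nt protected from RNase I in the monosome fraction) and 3 input libraries (cytoplasmic RNA fragmented at random) were made, 12 libraries in 4 groups. The labels call the replicates biological, and all come from 1 cell line.

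Input libraries held 2276693 to 2845568 counted reads and footprint libraries 10127477 to 19181588. The median standard error over all tested genes on the log2 scale was 0.22 in input and 0.15 in footprints, and for ribosome density, the ratio of footprints to input, it was 0.27. DUSP6, a feedback target of the pathway, fell from 1392 ± 206 to 6.58 ± 6.10 normalized input counts (SD, n = 3), which matches the treatment labels. Of the epithelial markers EPCAM, CDH1, KRT8, KRT18 and KRT19 were detected in every input library and VIL1 was at 0 in all 6, while PTPRC, PECAM1 and COL1A2, markers of leukocytes, endothelium and fibroblasts, had 1 or 2 reads each over the 6 input libraries and COL1A1 had 36 to 90 normalized counts. Replicate 1 of DMSO stood apart in footprints. Its footprint library correlated with the other DMSO footprint libraries at r = 0.952 and 0.964 over genes, against 0.988 between those, and its input and footprint libraries deviated from their group means together (r = 0.816 over 7668 genes, against at most 0.345 for the other same-numbered pairs). In input, DMSO replicates 1 and 3 deviated alike from the group mean, by a mean of 0.222 and 0.225 on the log2 scale. The FTH1 changes, FTL density, TFRC input and TFRC footprints are given with and without DMSO replicate 1. So are calls of named genes that were lost without it. Other values were fitted with it unless stated.

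Under trametinib, mRNA of both ferritin chains rose, by 2.76-fold for FTH1 and 1.70-fold for FTL. Footprints on FTH1 rose less, by 1.94-fold, and those on FTL, at 1.1-fold of the DMSO level, did not pass the test. TFRC mRNA, at 1.14-fold, and TFRC footprints, at 1.23-fold, did not pass it either. ACO1 and SLC11A2 footprints rose by 1.35-fold and 1.36-fold, and no member passed the test for ribosome density. These are values from bulk cultures. In them, a change in the share of cells carrying a message cannot be told apart from a change in the amount per cell. All changes given here, in input and in footprints, are relative to the typical mRNA, because the scaling cannot show a change common to all mRNAs. The paper reports that global protein synthesis fell under the inhibitor in this cell line. Whether the footprints of any member rose in absolute terms was not tested.

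Of the 6 tested members, 2 passed in input, both higher, where 32.1% of all tested genes passed in either direction and 15.2% were higher. In footprints 3 members passed, all higher, against 49.4% of tested genes in either direction and 23.8% higher. In ribosome density 0 of 6 passed in edgeR's quasi-likelihood test, where 1.05% of tested genes did and 0.0469% were higher. In DESeq2 0 of 6 passed. An unadjusted p under 0.05 in edgeR was reached by 1 member, FTL, and by 864 of all 10663 tested genes. The median change of the 6 members was 0.26 in input, 0.36 in footprints and 0.06 in density on the log2 scale, beside -0.01, -0.01 and 0.00 over all tested genes. All 6 members had input and footprint values above 0, as they did in each alternative fit with all libraries, library totals included. TFRC input was -0.02 without DMSO input replicate 1. The values are relative to the scaling used. With scaling to library totals the median of all tested genes shifted to 0.16 in footprints and 0.18 in density. The share of higher calls in footprints then went from 48.2% to 64.8%. In density that share went from 4.46% of calls to 25.7%.

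**Figure D1:**
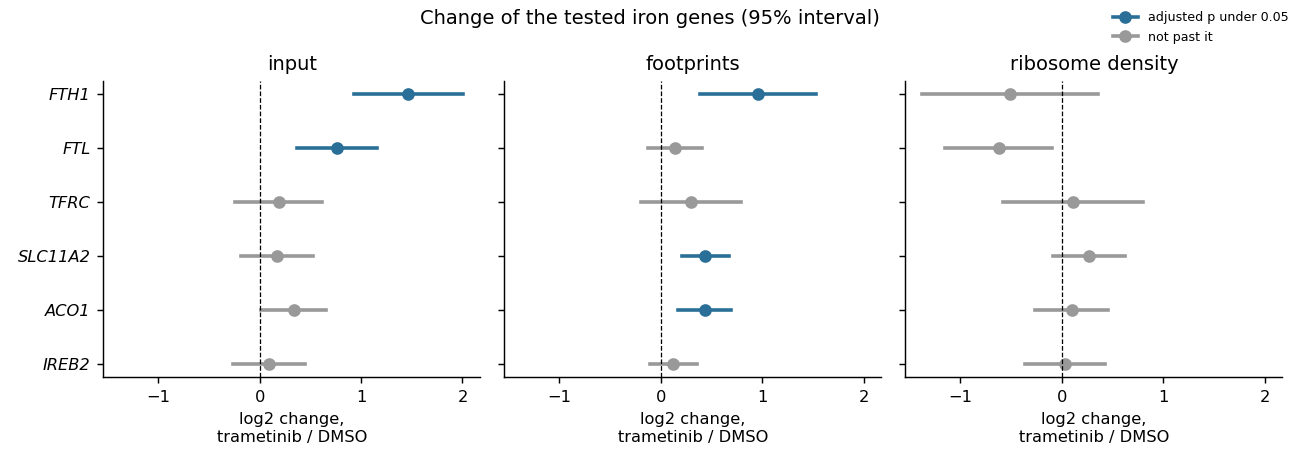
Log2 change under trametinib relative to DMSO for the 6 tested genes in input, footprints and ribosome density, with points for the edgeR estimate and lines for its 95% interval. Blue points passed an adjusted p of 0.05: FTH1 and FTL in input, FTH1, SLC11A2 and ACO1 in footprints, and no gene in density.

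FTH1, the heavy chain of ferritin, oxidises iron so that it can be stored in the protein shell. Its input level was 9325, 5998 and 5683 normalized counts in the DMSO replicates and 22680, 11976 and 23408 in the trametinib replicates. Every trametinib library lay above every DMSO library, with trametinib replicate 2 well below its companions. The rise was 1.47 on the log2 scale (95% interval 0.93 to 2.01, adjusted p = 0.000717 in edgeR's quasi-likelihood test with Benjamini-Hochberg adjustment over all tested genes).

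FTH1 footprints stood at 5644, 3360 and 2662 normalized counts in DMSO and at 6772, 8162 and 7748 in trametinib. The groups did not overlap, and DMSO replicate 1 was the DMSO library nearest to the treated ones. The rise was 0.96 on the log2 scale (95% interval 0.39 to 1.53, edgeR adjusted p = 0.012). Without both libraries of DMSO replicate 1, the FTH1 rise was 1.73 in input and 1.33 in footprints.

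Ribosome density of FTH1, in footprints per input of normalized counts with same-numbered libraries set against each other, was 0.605, 0.560 and 0.469 in DMSO and 0.299, 0.682 and 0.331 in trametinib. Replicates 1 and 3 of trametinib lay below all DMSO values and replicate 2, the library with the lowest treated input, lay above them, so the groups overlapped. The density change was -0.51 on the log2 scale (95% interval -1.37 to 0.36, edgeR adjusted p = 0.877). That interval spans 0.386-fold to 1.28-fold, at 2427 to 9424 raw FTH1 reads per input library and 5158 to 22042 per footprint library. The main fit did not pair input and footprints of a number. With the 2 blocked together, the FTH1 density change was -0.42, with a standard error of 0.24 against 0.40 (edgeR adjusted p = 0.556). The FTH1 density change was -0.40 without both libraries of DMSO replicate 1 and -0.14 without the footprint library of that replicate alone.

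FTL encodes the light chain of ferritin, which helps the iron core to form. Its input was 11154, 8746 and 13037 normalized counts in DMSO and 14960, 17787 and 23128 in trametinib. All 3 treated libraries lay above the controls, and the rise was 0.76 on the log2 scale (95% interval 0.36 to 1.16, edgeR adjusted p = 0.00702).

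FTL footprints did not separate the groups, with 991.6, 1098 and 936.0 normalized counts in DMSO and 1022, 1235 and 1082 in trametinib, although the treated library was the higher of each of the 3 same-numbered pairs. Their change was 0.14 on the log2 scale (95% interval -0.13 to 0.41, edgeR adjusted p = 0.344), a range that overlaps the interval of the FTL mRNA rise (0.36 to 1.16). The density of FTL was 0.0889, 0.126 and 0.0718 footprints per input in DMSO and 0.0683, 0.0694 and 0.0468 in trametinib. All treated values lay below all DMSO values, and the difference was -0.62 on the log2 scale (95% interval -1.15 to -0.09, adjusted p = 0.489 in edgeR). The FTL density difference thus failed the correction, with an unadjusted p of 0.0243 in edgeR's quasi-likelihood test. Without the DMSO replicate 1 libraries it was -0.64.

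**Figure D2:**
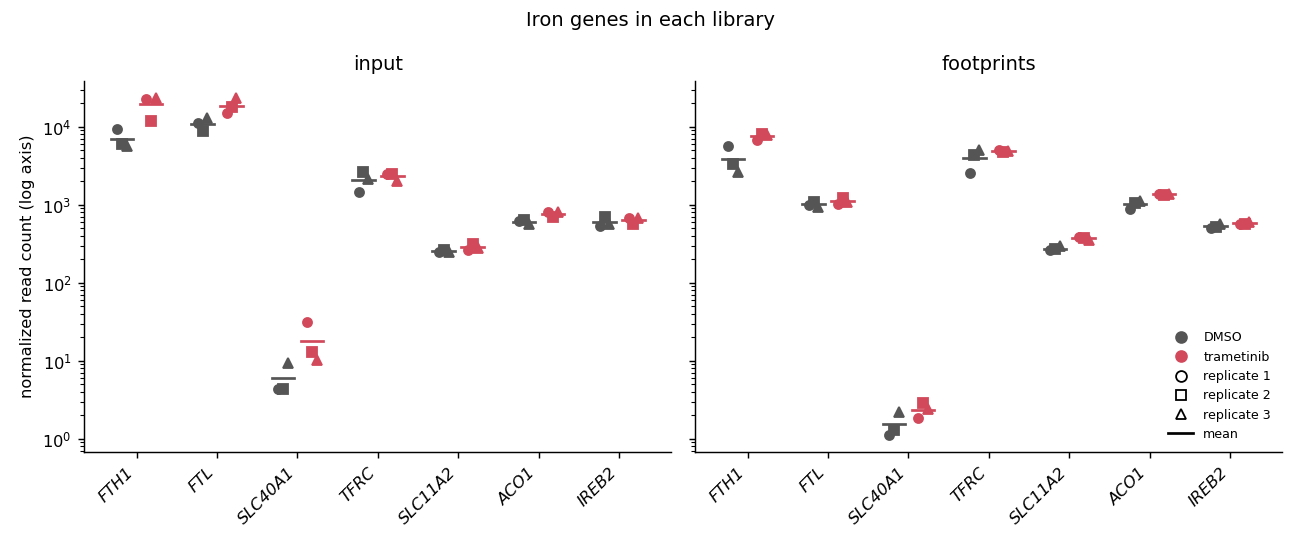
Normalized read counts of the 7 genes in each input library (left) and each footprint library (right) on a log axis, DMSO in grey and trametinib in red, with the marker shape giving the replicate number and a line at the group mean (n = 3). FTH1, ACO1 and SLC11A2 separate the treatments in both panels, and FTL in input only. SLC40A1, with few reads, lies below all other members and also separates in input only.

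The 2 ferritin messages together made up 0.303% ± 0.0437 of input reads in DMSO and 0.641% ± 0.137 in trametinib (SD, n = 3), and 0.0731% ± 0.0230 and 0.146% ± 0.0136 of footprints. Per coding length, FTL mRNA was the more abundant in DMSO, with 3527 ± 708 input CPM per kb against 2139 ± 546 for FTH1. In footprint CPM per kb the order was the opposite, 287 ± 27 for FTL against 1057 ± 417 for FTH1. The ratio of FTH1 to FTL footprints per coding length was 5.44, 2.93 and 2.72 in DMSO and 6.33, 6.32 and 6.85 in trametinib, so every treated library had the higher ratio. In input the same ratio was 0.80, 0.66 and 0.42 in DMSO and 1.45, 0.64 and 0.97 in trametinib, and the groups overlapped. Both ferritin genes have processed pseudogenes, and only reads assigned to a single symbol were counted, so the counts of each chain are uncertain to the extent that reads were shared with such copies.

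SLC40A1 encodes ferroportin, the exporter of iron from cells, and had few reads in all libraries. Its raw reads numbered 2, 2 and 4 in DMSO input and 13, 5 and 4 in trametinib input. In footprints they numbered 3, 2 and 6 in DMSO and 6, 7 and 5 in trametinib. Counts this low did not allow a comparison of its translation.

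TFRC, the receptor that brings transferrin-bound iron into the cell, had 1437, 2606 and 2156 normalized input counts in DMSO and 2513, 2499 and 2041 in trametinib. The groups overlapped, and DMSO replicate 1 was the lowest of the 6. The change in TFRC mRNA was 0.19 on the log2 scale (95% interval -0.24 to 0.61, edgeR adjusted p = 0.503), and without DMSO replicate 1 it was -0.02. A p above the threshold does not show that the level was the same. The interval ends at 1.53-fold, which overlaps the interval of FTL mRNA (1.29-fold to 2.24-fold). It lies below the interval of FTH1 mRNA (1.90-fold to 4.02-fold).

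TFRC footprints were 2581, 4338 and 5014 normalized counts in DMSO and 4972, 4729 and 4952 in trametinib. The treated libraries agreed closely, and 1 of the DMSO libraries lay above them. The change was 0.30 on the log2 scale (95% interval -0.19 to 0.79, edgeR adjusted p = 0.282), and it was 0.06 without the DMSO replicate 1 libraries. TFRC density was 1.80, 1.67 and 2.33 footprints per input in DMSO and 1.98, 1.89 and 2.43 in trametinib, overlapping ranges, higher in trametinib for each of the 3 replicate numbers, with a difference of 0.11 on the log2 scale (95% interval -0.58 to 0.80, edgeR adjusted p = 0.988).

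Set side by side, input of FTH1 and FTL rose while their density estimates were -0.51 and -0.62, neither past the adjusted threshold, and TFRC had estimates of 0.19 in input and 0.11 in density. The difference between the ferritin and TFRC changes was not tested.

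**Figure D3:**
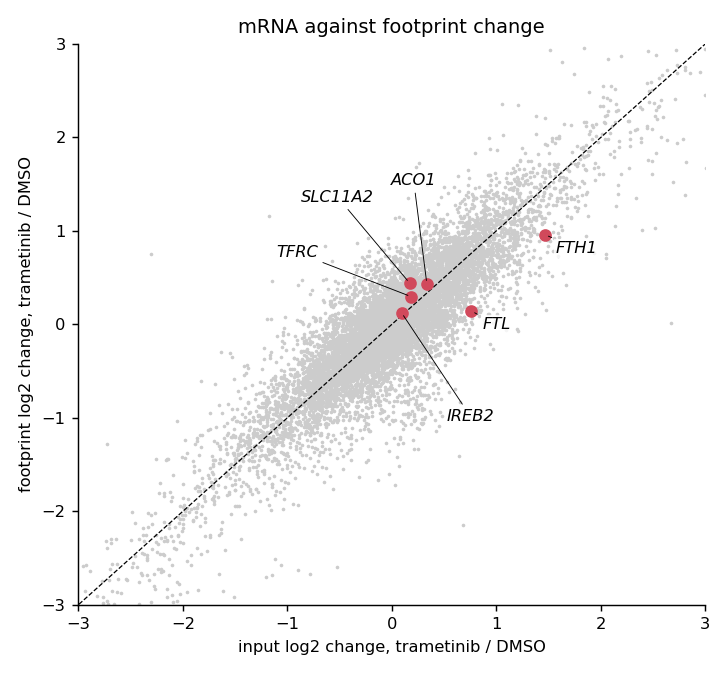
Log2 change in footprints (vertical axis) against log2 change in input (horizontal axis), trametinib relative to DMSO, for all tested genes in grey and the 6 tested members in red, with a dashed line where both changes are equal and with 285 genes beyond 3 on either axis not shown. FTH1 and FTL lie below the line and to the right, and the other 4 members lie close to it.

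SLC11A2 encodes the transporter that moves iron across the endosomal and the intestinal cell membrane. Its input was 248.1, 263.6 and 250.5 normalized counts in DMSO and 264.7, 311.4 and 282.8 in trametinib. The treated libraries lay just above the controls, by 0.17 on the log2 scale (95% interval -0.18 to 0.53, edgeR adjusted p = 0.456). Footprints were 259.7, 269.7 and 292.3 in DMSO and 390.5, 370.2 and 354.9 in trametinib, without overlap, and rose by 0.44 on the log2 scale (95% interval 0.21 to 0.68, edgeR adjusted p = 0.00719). Density of SLC11A2 was 1.05, 1.02 and 1.17 footprints per input in DMSO and 1.47, 1.19 and 1.26 in trametinib. These groups did not overlap, yet the difference of 0.27 on the log2 scale did not pass (95% interval -0.08 to 0.62, edgeR adjusted p = 0.783).

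ACO1 is iron regulatory protein 1, which acts as the cytosolic aconitase while it holds an iron-sulfur cluster. Its input was 614.8, 643.8 and 564.3 normalized counts in DMSO and 801.4, 692.2 and 807.3 in trametinib, higher in each treated library, with a difference of 0.34 on the log2 scale that did not pass after adjustment (95% interval 0.01 to 0.66, edgeR adjusted p = 0.103). Footprints on ACO1 were 894.8, 1039 and 1106 in DMSO and 1391, 1323 and 1386 in trametinib. They rose by 0.43 on the log2 scale (95% interval 0.17 to 0.69, edgeR adjusted p = 0.0127), a call that was lost when trametinib footprint replicate 1 was left out (0.42, adjusted p = 0.0596). ACO1 density differed by 0.10 on the log2 scale (95% interval -0.27 to 0.46, edgeR adjusted p = 0.983).

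IREB2 is iron regulatory protein 2, whose protein is degraded when iron is plentiful. Its input was 537.1, 706.5 and 561.9 normalized counts in DMSO and 685.9, 561.0 and 678.7 in trametinib, and its footprints were 509.8, 517.2 and 559.2 in DMSO and 562.8, 559.2 and 608.9 in trametinib. The groups overlapped in both, and in footprints the treated library was the higher of each of the 3 same-numbered pairs. The differences were 0.09 in input (95% interval -0.27 to 0.45), 0.13 in footprints (-0.10 to 0.36) and 0.03 in density (-0.36 to 0.43) on the log2 scale, with edgeR adjusted p of 0.706, 0.331 and 0.996.

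Ribosome density spanned a wider range between the members than between treatments. In DMSO the mean footprints per input were 0.0954 ± 0.0275 for FTL, 0.545 ± 0.0697 for FTH1, 0.892 ± 0.141 for IREB2, 1.08 ± 0.0770 for SLC11A2, 1.68 ± 0.258 for ACO1 and 1.93 ± 0.350 for TFRC (SD, n = 3). Of all tested genes, 0.431% had a lower density than FTL, 17.9% a lower one than FTH1 and 83.6% a lower one than TFRC. Along this order the ranges of ACO1 and TFRC overlapped, and those of the other neighbours did not. In trametinib the order of the means was the same.

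**Figure D4:**
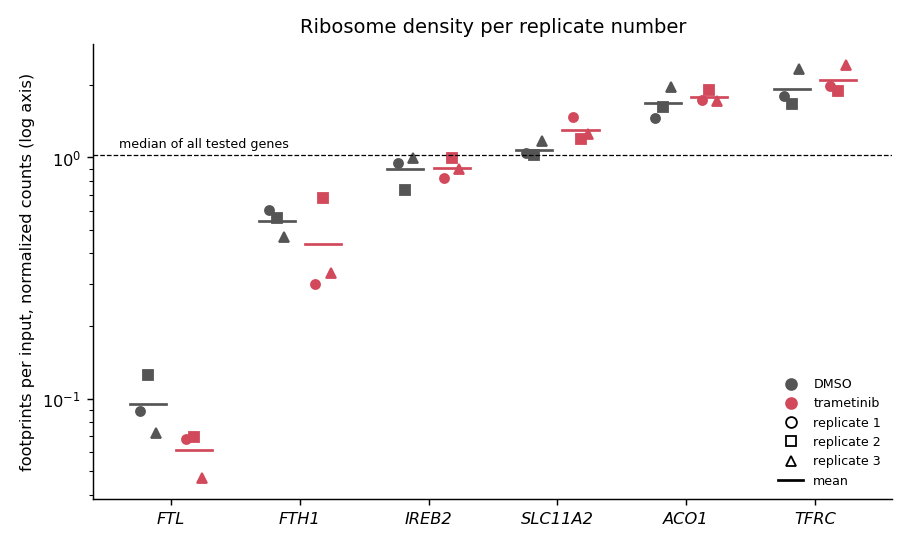
Ribosome density (footprints per input of normalized counts, log axis) of the 6 tested members for each replicate number, DMSO in grey and trametinib in red, with lines at the group means (n = 3) and a dashed line at the median of all tested genes. FTL lies lowest, between 0.0468 and 0.126, and TFRC highest by its mean, between 1.67 and 2.43.

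Per coding length, TFRC mRNA in DMSO was at 154 ± 47.2 input CPM per kb, ACO1 at 38.4 ± 2.62, IREB2 at 35.2 ± 6.01, SLC11A2 at 25.5 ± 1.41 and SLC40A1 at 0.594 ± 0.299 (SD, n = 3). ACO1 and IREB2 did not differ beyond their spread. In footprint CPM per kb, TFRC at 261 ± 82.9 stood next to FTL at 287 ± 27, within the spread of the replicates, although FTL had far more mRNA.

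Likeness to FTH1, FTL and TFRC was measured over all 12 libraries as the distance between log2 values set against the DMSO mean, among 6791 genes with a mean of at least 100 normalized counts in each assay. Nearest to FTH1 were MSRB2, EPM2AIP1 and MISP, at distances of 0.906 to 0.957 where the median gene was at 3.52. Nearest to FTL were TSPO, ARHGAP27 and SEMA4C, at 0.422 to 0.549 (median 1.90). TSPO changed by 0.59 in input, 0.12 in footprints and -0.48 in density on the log2 scale. Nearest to TFRC were BLVRA, ANAPC4 and LRRC8C, at 0.312 to 0.434 (median 1.71).

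Other genes of iron metabolism were followed as lists. For uptake, storage, release and sensing, 5 of 18 tested genes passed as higher in input and 1 as lower, beside 15.2% and 16.9% of all tested genes. In footprints 9 of the 18 passed as higher and 1 as lower, beside 23.8% and 25.6%, and the list medians were 0.22 in input and 0.27 in footprints on the log2 scale. CYBRD1, a ferric reductase, rose by 1.5 in input and 1.49 in footprints. HMOX1, the haem oxygenase that frees iron from haem, rose by 1.16 and 1.36, and NCOA4, the receptor that delivers ferritin to lysosomes, by 0.74 and 0.54. BDH2, a short-chain dehydrogenase, rose by 1.40 in input and 1.82 in footprints, and HFE, a partner of the transferrin receptor, by 1.16 in footprints. The importer SLC39A14 fell by 0.68 in input and HMOX2, the second haem oxygenase, fell by 0.50 in footprints. The SLC39A14 call was lost without DMSO input replicate 1 (-0.37, edgeR adjusted p = 0.0722) or without any 1 trametinib input library (0.0615 to 0.101), and the HMOX2 call with library totals (0.0706) and without trametinib footprint replicate 1 or 2 (0.0674 and 0.0698).

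Of 26 tested genes of iron-sulfur cluster assembly, 7 passed as lower and 1 as higher in input, and 12 passed as lower and 1 as higher in footprints, with medians of -0.36 and -0.24 on the log2 scale. Over all tested genes 16.9% were lower and 15.2% higher in input, and 25.6% were lower and 23.8% higher in footprints. HSPA9, the mitochondrial chaperone of the assembly, fell by 1.74 in input and 1.12 in footprints on the log2 scale. NDOR1, which passes electrons to the cytosolic assembly, fell by 1.51 and 1.40, BOLA3, a factor of late cluster transfer, by 1.26 in input, and CIAO1, of the cytosolic assembly, by 0.81 in footprints. FDXR, the ferredoxin reductase, rose by 0.73 and 0.58.

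Of 8 haem synthesis genes, 2 passed as higher in input and 4 in footprints, beside 15.2% and 23.8% of all tested genes, with medians of 0.09 and 0.24. CPOX, which makes protoporphyrinogen, rose by 1.61 in input and 1.43 in footprints and ALAD, an early enzyme, by 0.99 and 1.13. The input call of ALAD was lost without trametinib input replicate 2 (edgeR adjusted p = 0.109). Among 4 tested mRNAs with other described IREs, 0 passed in input, beside 32.1% of all tested genes, and 0 were called in DESeq2. An unadjusted p under 0.05 in edgeR was reached by 0 of the 4 in input and by 4577 of all 10663 tested genes. In footprints 1 passed, beside 49.4% of all tested genes. It was EPAS1, a hypoxia-inducible factor, at -0.44 on the log2 scale (edgeR adjusted p = 0.0475). The EPAS1 call was lost in DESeq2 (adjusted p = 0.0514), with TMM scaling (0.0506) and with library totals (0.208). It was also lost without DMSO footprint replicate 1, where the change was -0.27 (0.0699), or replicate 2 (0.065). Leaving out trametinib footprint replicate 1, 2 or 3 lost it as well (0.0534, 0.106 and 0.162). In ribosome density 0 of the 56 tested genes of these lists passed in edgeR, and 0 passed in DESeq2 or limma. An unadjusted p under 0.05 in edgeR was reached by 5 of the 56 in density, beside 864 of all 10663 tested genes.

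**Figure D5:**
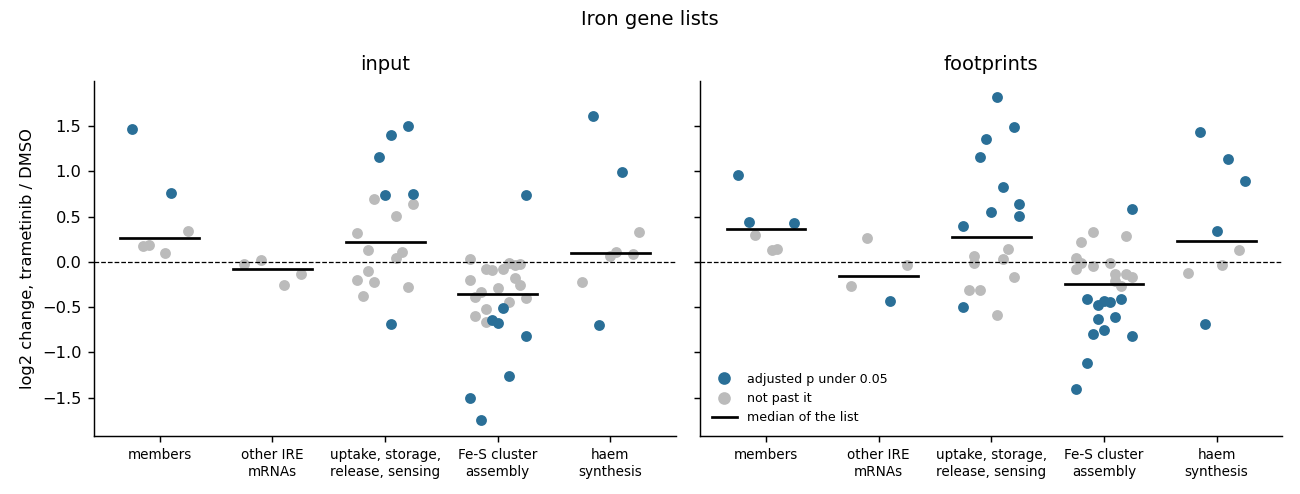
Log2 change under trametinib relative to DMSO of each tested gene in the 5 iron lists, in input (left) and footprints (right), with blue points for genes past an adjusted p of 0.05, grey points for the others and a bar at each list's median. Iron-sulfur cluster assembly has the lowest medians, -0.36 and -0.24, and the 6 members have 0.26 and 0.36.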

How the data were processed

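Ribo-seq was made from 12 HCT116 libraries, as described above. Per the study's methods, the authors removed adapters with the FASTX toolkit, discarded reads matching rRNA or tRNA with Bowtie 1.2.2, mapped the rest to Gencode 38 transcripts and counted reads of 25 to 35 nt within annotated reading frames that matched 1 gene symbol only. The deposited table holds raw counts per gene and library, and a normalized signal, which is the count divided by a size factor. It also holds the authors' own fold changes and p-values, from DESeq2 1.46.0, and marks for gene groups, none of which was used. Depth is given with the results.

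Here size factors were recomputed by the median of ratios over the 12 libraries and equalled the authors' in 12 of 12 (relative tolerance 0.001). Scaling of this kind cannot show a change common to all mRNAs. Counts were tested with edgeR 4.0.16 (R 4.3.3) by the quasi-likelihood test, two-sided, with input and footprints each fitted over their 6 libraries and ribosome density as the interaction of assay and treatment over 12. Genes needed 10 counts in 3 input libraries, and calls an adjusted p under 0.05 (Benjamini-Hochberg over 10663 genes). Scripts were tested on simulated data. Alternatives were DESeq2 1.42.0, limma 3.58.1 (prior count 2), TMM, library totals, other filters, a replicate block and leaving out libraries. The likeness distance used a pseudocount of 1. Hairpins came from Gencode 44. All members are named. From each list up to 4 called genes of largest change per comparison, are named, and NCOA4, SLC39A14, HMOX2 and FDXR were added after their values were seen. Members and lists were chosen with earlier results of these data known. The lower calls of the haem synthesis list are not reported here. Same-numbered DMSO and trametinib footprint libraries deviated from their group means together (r = 0.117, 0.133 and 0.294 over 7668 genes, each above 0.1). The footprint numbers were therefore read as pairs, though these correlations are low. The main tests did not use the pairs, and the replicate block did. By the paper's methods, input RNA came from a part of the lysate kept back before RNase I digestion. The labels do not say what a number shares.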

Additional observations from a re-analysis of the deposited data

How the results depend on the processing

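With all libraries in the fit, 131 of 132 member values kept their direction and side of the threshold, and the exception was the IREB2 footprint change, which passed with library totals (0.30, adjusted p = 0.0298 in edgeR). With libraries left out, 154 of 162 did: 1 lost its call (ACO1 footprints) and 7 changed sign, all of which missed the threshold in both fits. For input or footprints alone, leaving out both DMSO replicate 1 libraries repeats the fit without that replicate's library of the assay. Such values, the TFRC input sign change among them, are counted under both settings. Over single libraries left out, and without both DMSO replicate 1 libraries, which was added after seeing the data, the TFRC input change ran from -0.019 to 0.39, TFRC density from -0.12 to 0.32 and IREB2 density from -0.10 to 0.11. The TFRC input change was -0.019 without DMSO input replicate 1, which for input is the same fit as without both DMSO replicate 1 libraries. TFRC density was -0.09 without DMSO input replicate 2 and -0.12 without DMSO footprint replicate 1. IREB2 density was -0.10 without DMSO input replicate 2, -0.01 without trametinib footprint replicate 3 and -0.06 without trametinib input replicate 2. FTH1 density ran from -0.77 to -0.14 and FTL density from -0.76 to -0.43, none past the threshold. The number of genes called in ribosome density was 185 in DESeq2 (35 higher and 150 lower) against 112 (5 and 107), 69 to 139 with 1 library left out and 150 without both DMSO replicate 1 libraries. For input against input (r = 0.069, 0.050 and 0.34) and input against footprints (r from -0.12 to 0.82), not every same-numbered pair deviated together, although 4 of 6 input libraries resembled their own number most in the other treatment, a hint from the data. For footprints the numbers were read as pairs. With the replicate block, 3973 genes were called in input, 5311 in footprints and 113 in density, and 161 in density with input and footprints of a number blocked together. FTL density was then -0.61 in both blocked fits (adjusted p = 0.429 and 0.212 in edgeR) and FTH1 density -0.44 and -0.42. The block changed no call of a member or other named gene. SLC40A1 had too few reads to be tested. FTH1 and FTL had at least 1686 reads in each library, while replicate input libraries differed by 3.45 to 14.4 times the counting variance. Replicate footprint libraries, which are deeper, differed by 6.15 to 129 times, with the highest value between DMSO replicates 1 and 3.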
